A study of Mus musculus with 6 samples.

Results

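The proteasome subunit genes were taken from the array by name. They are the genes listed, ignoring case, as Psma, Psmb, Psmc, Psmd or Psme with a number, leaving out Psmb8, Psmb9 and Psmb10, which encode the subunits of the immunoproteasome. This gave 40 of the 30547 gene symbols and 70 of the 45281 probes on the array. Of these, 34 genes with 57 probes could be tested, among 12623 genes and 17890 probes tested in all. C2C12 cells are an established line of mouse myoblasts, here obtained from ATCC, which fuse into myotubes in low serum. They received 60 nM of scramble siRNA or of an siRNA against *Dj1* by reverse transfection, were moved to differentiation medium after 48 h and were kept in it for 96 h. Total RNA from 3 scramble and 3 DJ-1 siRNA samples was hybridized to an Illumina mouse BeadChip, with 1 array per sample. All samples come from a single line, all were transfected, and the labels do not say whether the samples of a group were separate cultures, so that a p-value measures the spread between these samples, which may be technical.

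The proteasome is the large protease that degrades proteins marked with ubiquitin. Its core particle is a barrel in which the alpha rings gate the entry and the beta rings hold the proteolytic sites, and its regulatory particle has a base with a ring of ATPases that unfold the substrate and a lid that takes the ubiquitin chain off. In skeletal muscle it carries out much of the breakdown of contractile proteins, and genes of its subunits are induced in many forms of muscle atrophy.

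The values are log2 signals after background correction and quantile normalization, and a probe was tested if it was detected on at least 3 of the 6 arrays. Median raw signals over all 45281 probes were 162.2, 167.4 and 153.5 for scramble and 161, 166.9 and 152.3 for knockdown. Most probes were not detected on a given array, so that these medians lie near background and do not compare the brighter probes. More probes were detected on each knockdown array (18704, 18857 and 18408) than on any scramble array (16985, 17399 and 18179). The knockdown was examined first. The probe of Park7, the gene of DJ-1, read 13.59, 13.37 and 13.63 in scramble replicates 1 to 3 and 12.48, 12.49 and 12.15 in DJ-1 siRNA replicates 1 to 3. Every knockdown array was below every scramble array. The log2 fold change was -1.16 (SE 0.14, adjusted p = 0.00344 from limma), which left 44.7% of the scramble signal.

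Transcripts of the proteasome were lower in *Dj1* knockdown myotubes on a large part of the probes. Of the 57 tested probes, 23 fell at an adjusted p under 0.05 (limma), where 13.6% of all tested probes did. By the same limma test 0 of the 57 rose, where 16.5% of all tested probes did, and at an unadjusted p under 0.05 there were 1 higher and 29 lower, while 7659 of the 17890 probes tested in all were at such a p. The median log2 fold change of the 57 probes was -0.27, and 43 of them were negative. Over all tested probes the median was 0.05. The values of the scramble and DJ-1 siRNA arrays did not overlap for 30 probes that were lower, where 22% of all tested probes were so placed, and for 3 that were higher, where 26.5% were. In bulk RNA, fewer cells of a kind and less RNA per cell cannot be told apart.

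Summarised per gene, as the mean of its tested probes, 13 of 34 proteasome genes fell (14.5% of all tested genes did) and 0 rose in limma (18.5% of all tested genes did, and Psmd8 was the 1 proteasome gene higher at an unadjusted p under 0.05, against 16 lower, while 5622 of the 12623 genes tested in all were at such a p). The 13 genes were Psma4, Psmb2, Psmb3, Psmb7, Psmc1, Psmc2, Psmc4, Psmc5, Psmd1, Psmd6, Psmd13, Psmd14 and Psme3. They include members of both core rings, the base, the lid and the activators, and none of the 3 tested chaperones. Averaged over the 34 genes, the log2 level was 11.06, 11.16 and 11.16 in scramble myotubes and 10.88, 10.92 and 10.88 in knockdown myotubes. The median log2 fold change of the genes was -0.21, and that of all genes tested was 0.05. With single arrays left out, the proteasome genes called lower numbered 13, 8 and 8 without scramble replicates 1, 2 and 3 and 6, 12 and 8 without knockdown replicates 1, 2 and 3. Calls over all tested probes fell too. The share called lower was 13.5%, 9.27% and 9.79% without these scramble arrays and 6.55%, 10.7% and 7.05% without these knockdown arrays, against 13.6% with all arrays.

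**Figure D1:**
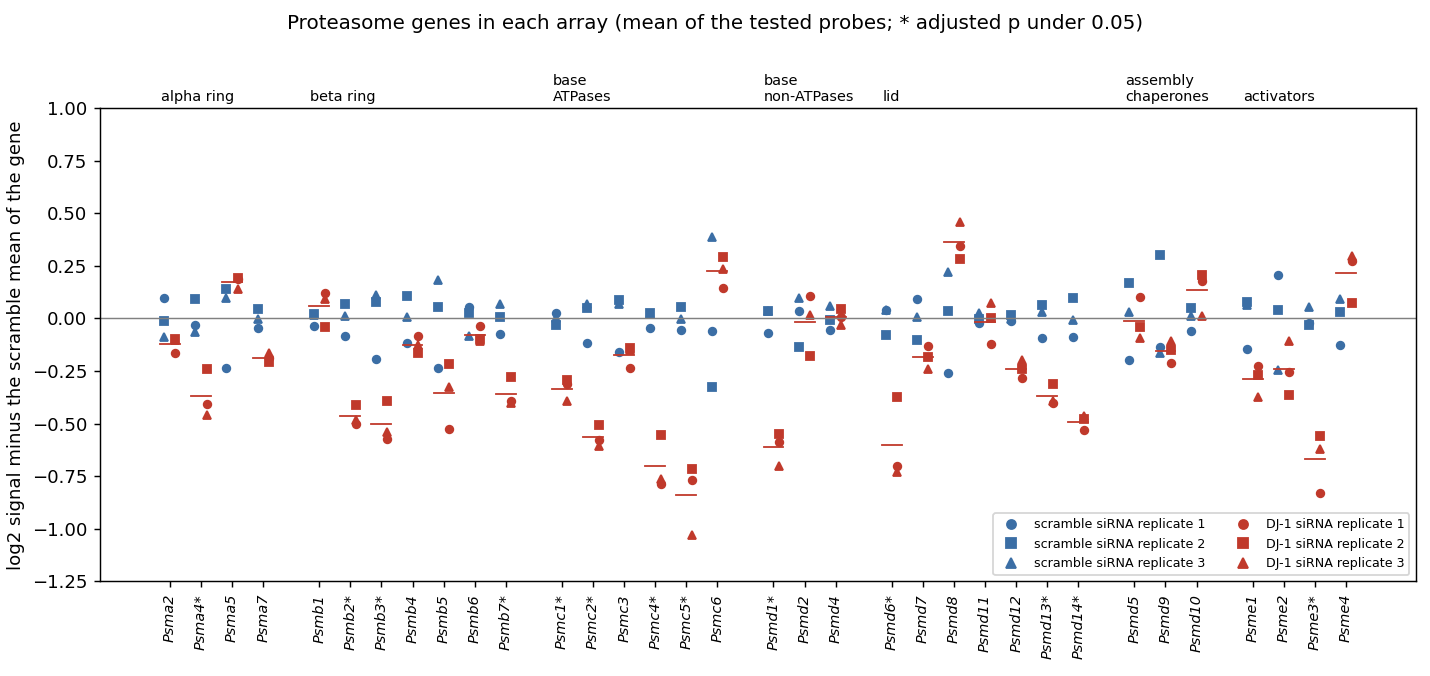
Log2 signal of each tested proteasome gene (mean of its tested probes) minus its scramble mean, on the y axis, in the 3 scramble (blue) and 3 DJ-1 siRNA (red) arrays, with the genes on the x axis ordered by their place in the complex, red lines for the knockdown means and stars for an adjusted p under 0.05. The falls are largest in Psmc5 and Psmc4 of the base and in Psme3. None of the 3 assembly chaperones has a star, where 14.5% of all tested genes fell.

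Proteasome probes are brighter than most, and the share of calls was therefore also read among bright probes, by a split chosen after seeing the data. Of the 39 proteasome probes with a mean log2 level of 10 or more, 18 fell, where 15.5% of all tested probes that bright did, and 0 rose in limma, where 16.5% did. Of the 18 dimmer proteasome probes 5 fell, where 12.9% of all tested probes below that level did, and 0 rose in limma, where 16.5% did. The number of calls also depended on single arrays. Without scramble replicate 1, 2 or 3 it was 23, 14 or 14 probes, and without DJ-1 siRNA replicate 1, 2 or 3 it was 8, 17 or 10. Over all tested probes the lower calls went from 2430 to 1172 without DJ-1 siRNA replicate 1 and to 1261 without DJ-1 siRNA replicate 3. Of the 23 probes, 8 stayed called with each array left out and under each other setting tried. They belong to Psmc2, Psmc4 (2 probes), Psmc5 (2 probes), Psmd1, Psmd6 and Psme3. With the arrays shifted to a common 75th percentile after background correction in place of quantile normalization, 10 of the 57 probes fell and Psmd8 rose, where 11.9% of all tested probes fell and 18.3% rose.

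**Figure D2:**
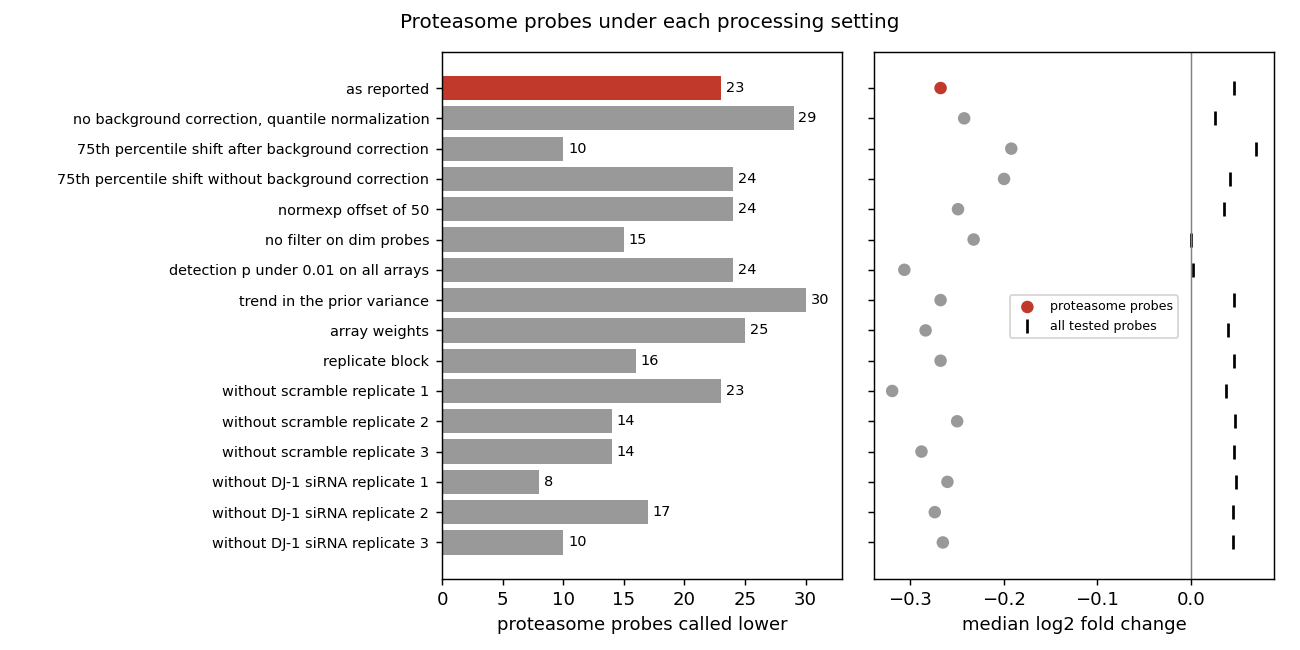
Number of proteasome probes called lower (left, x axis) and median log2 fold change of the proteasome probes with that of all tested probes (right, x axis) under the processing as reported and each alternative (y axis). The number ranged from 8 to 30, and the median stayed between -0.32 and -0.19.

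Promoter sequences are shown for the 3 genes with the lowest gene means of the log2 fold change, among those with an entry, and for Psmb3, Psmb5 and Psmb6. Psmb3 was picked because its entry held the most kinds of the matches below among the other genes that fell. Psmb5 and Psmb6 are the catalytic subunits whose entry held TGACNNNGC, and were picked for that match. The matches in these entries thus follow from the choice. The sequences are RefSeq promoters of mouse build GRCm38.p6 from 250 bases before to 50 bases after the start of the gene. Such a sequence was at hand for 33 of the 40 genes, in 36 entries. Psma8, Psmb1, Psmb2, Psmb7, Psmc3, Psmd3 and Psmd7 are the genes without an entry. Capitals mark matches, on either strand and allowed to overlap, to TGACNNNGC (the core of the antioxidant response element, to which Nfe2l1 and Nfe2l2 bind), CCAAT, GAAANNGAA (the core of the interferon-stimulated response element) and TGACGTCA (the cyclic AMP response element). The promoters of Psmc5 (chr11:106255935-106256234, plus strand) and Psmc4 (chr7:28050043-28050342, minus strand) held no match, and that of Psme3 (chr11:101315963-101316262, plus strand) held CCAAT. Psmb3 (chr11:97703184-97703483, plus strand) had 2 CCAAT and 1 GAAANNGAA. The entries of Psmb5 (chr14:54617946-54618245, minus strand) and Psmb6 (chr11:70525107-70525406, plus strand) each had a match to TGACNNNGC, 47 and 9 bases before the start.
Psmc5: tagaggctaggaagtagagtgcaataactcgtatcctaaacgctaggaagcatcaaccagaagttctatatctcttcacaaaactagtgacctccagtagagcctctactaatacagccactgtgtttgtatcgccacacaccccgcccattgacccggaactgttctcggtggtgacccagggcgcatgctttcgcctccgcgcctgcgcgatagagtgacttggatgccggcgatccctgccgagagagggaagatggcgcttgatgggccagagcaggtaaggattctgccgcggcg
Psmc4: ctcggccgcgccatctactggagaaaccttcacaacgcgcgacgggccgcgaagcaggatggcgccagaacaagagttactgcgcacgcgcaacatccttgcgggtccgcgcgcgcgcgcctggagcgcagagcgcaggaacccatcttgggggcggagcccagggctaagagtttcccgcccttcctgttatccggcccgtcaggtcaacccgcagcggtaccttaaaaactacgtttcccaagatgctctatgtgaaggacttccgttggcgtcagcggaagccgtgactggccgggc
Psme3: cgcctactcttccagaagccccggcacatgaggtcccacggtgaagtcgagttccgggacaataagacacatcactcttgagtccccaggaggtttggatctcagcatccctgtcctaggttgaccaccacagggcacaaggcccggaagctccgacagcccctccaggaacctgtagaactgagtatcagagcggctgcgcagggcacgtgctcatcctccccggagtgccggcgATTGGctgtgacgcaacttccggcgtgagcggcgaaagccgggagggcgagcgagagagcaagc
Psmb3: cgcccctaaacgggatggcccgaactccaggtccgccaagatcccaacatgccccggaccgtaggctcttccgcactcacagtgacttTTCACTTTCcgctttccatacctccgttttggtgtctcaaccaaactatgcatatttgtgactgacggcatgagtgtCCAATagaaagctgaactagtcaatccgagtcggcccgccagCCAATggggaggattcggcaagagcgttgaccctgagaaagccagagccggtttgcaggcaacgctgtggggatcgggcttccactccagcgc
Psmb5: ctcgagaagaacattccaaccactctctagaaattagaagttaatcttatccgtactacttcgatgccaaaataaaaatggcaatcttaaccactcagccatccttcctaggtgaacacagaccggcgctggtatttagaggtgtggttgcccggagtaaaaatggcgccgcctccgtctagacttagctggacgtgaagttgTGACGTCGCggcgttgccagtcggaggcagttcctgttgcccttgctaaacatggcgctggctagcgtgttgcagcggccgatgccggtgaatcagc
Psmb6: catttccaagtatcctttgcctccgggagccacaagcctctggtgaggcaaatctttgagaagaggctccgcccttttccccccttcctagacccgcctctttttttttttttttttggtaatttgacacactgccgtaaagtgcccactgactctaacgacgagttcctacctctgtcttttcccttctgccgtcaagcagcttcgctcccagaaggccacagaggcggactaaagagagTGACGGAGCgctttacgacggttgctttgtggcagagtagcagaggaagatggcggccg
TGACNNNGC was found in 6 of the 36 proteasome entries (16.7%) and in 12.4% of the 32851 promoters of that length. The 6 entries belong to Psmb5, Psmb6, Psmc6, Psmd9, Psmd12 and Psme4, all tested and not called, which makes 6 of 19 entries of such genes and 0 of 12 entries of genes that fell. CCAAT was in 13 entries (36.1%, against 37.4% of all promoters), in 5 of 12 of genes that fell and in 4 of 19 of tested genes not called. GAAANNGAA was in 6 (16.7%, against 8.56%), in 2 of these 12 and in 4 of these 19. TGACGTCA was in 0 (against 1.79%). The 12 entries cover 11 of the 13 genes that fell, and no difference between these shares was tested. A match describes the letters of the window and is not evidence of binding.

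The alpha rings, which form the outer gate of the core, had a median over probes nearer 0 than the other parts of the core and regulatory particles. Over gene means the base subunits without ATPase activity were nearer, at -0.02 against -0.15. The former, a median of 3 genes, is the value of Psmd2, which was measured on dim probes. Of the 6 tested alpha ring probes only that of Psma4 fell, where 13.6% of all tested probes did. Psma4 read 12.83, 12.96 and 12.80 in scramble and 12.46, 12.62 and 12.40 in knockdown myotubes, and every knockdown array was below every scramble array. The log2 fold change was -0.37 (SE 0.11, adjusted p = 0.0408). With each array left out in turn, this call was kept only without DJ-1 siRNA replicate 2. The highest adjusted p of these fits was 0.132, without DJ-1 siRNA replicate 1. Under the 75th percentile shift after background correction Psma4 was at -0.21 and not called (adjusted p = 0.189). The Psma2 probe was at -0.12, and at 0.03 under the 75th percentile shift after background correction. Psma7 was at -0.15 and -0.23 on its 2 probes and Psma5 at 0.04 and 0.31, the last on a dim probe whose knockdown arrays were all above the scramble arrays. Without scramble replicate 1 this value (ILMN_2768119) was 0.07. None of them passed the test, while the second Psma7 probe did so with quantile normalization without background correction and with the trend in the prior variance. The median of the alpha ring probes was -0.13, and it turned to 0.01 under the same 75th percentile shift. Psma1, Psma3 and Psma6, further alpha subunits, and Psma8, a form known from testis, were detected on 1, 0, 0 and 0 of the 6 arrays and were not tested.

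Among the beta subunits, 6 of 11 tested probes fell, where 13.6% of all tested probes did, and the median log2 fold change was -0.36. The calls lay in Psmb2 and Psmb3, which have no proteolytic site, and in Psmb7, which carries the trypsin-like activity. Psmb3 read 12.95, 13.22 and 13.25 in scramble and 12.56, 12.74 and 12.60 in knockdown myotubes, without overlap, and fell by 0.50 on the log2 scale (SE 0.12, adjusted p = 0.0235). Psmb2 was at 12.51, 12.65 and 12.65 against 12.15, 12.24 and 12.03 on ILMN_2765890, again without overlap. Its log2 fold changes were -0.46 and -0.47 on its 2 tested probes (adjusted p of 0.0188 and 0.0162). A further probe of each of Psmb2 and Psmb3 was not detected on any array. Of the 4 probes of Psmb7, 3 fell, by -0.41, -0.37 and -0.34 in log2 fold change (adjusted p of 0.0258, 0.0272 and 0.0306), and ILMN_2836147, with the fewest beads, was at -0.31 (adjusted p = 0.18). These calls were sensitive to single arrays, as seen with each array left out in turn. Psmb3 and ILMN_2765890 of Psmb2 kept theirs only without scramble replicate 1 or knockdown replicate 2 (adjusted p up to 0.0865 and 0.0687), and ILMN_2949632 of Psmb2 lost its call without knockdown replicate 1 (0.071). Of the Psmb7 calls, 2 were kept only without scramble replicate 1 (up to 0.103 and 0.0839) and the other was lost with each array left out (up to 0.0923).

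The other catalytic subunits were not called. Psmb5, which has the chymotrypsin-like site, read 10.26, 10.55 and 10.69 in scramble and 9.98, 10.29 and 10.17 in knockdown myotubes. Scramble replicate 1 lay among the knockdown arrays, and the log2 fold change was -0.36 (SE 0.15, adjusted p = 0.111). It was called under 4 of 15 alternatives, without scramble replicate 1 (-0.48, adjusted p = 0.0447), with quantile normalization but no background correction (adjusted p = 0.0409), with the trend in the prior variance (adjusted p = 0.029) and with array weights (adjusted p = 0.044). Psmb6, with the caspase-like site, was at -0.08 (adjusted p = 0.555) with overlapping groups, and its sign turned with the 75th percentile shift, to 0.07 after background correction and 0.01 without it. The structural subunits Psmb1 and Psmb4 were at 0.06 and -0.12, the latter at 0.05 under the 75th percentile shift after background correction. Psmb11, the form of thymic epithelium, was not detected on any array. The number of beta ring calls depended on single arrays. Without scramble replicates 1, 2 and 3 there were 6, 1 and 1, where 13.5%, 9.27% and 9.79% of all tested probes fell. Without DJ-1 siRNA replicates 1, 2 and 3 there were 0, 3 and 1, where 6.55%, 10.7% and 7.05% did. The median of the beta ring probes stayed between -0.43 and -0.31. Under the 75th percentile shift after background correction 0 of the 11 were called by limma, with a median of -0.23.

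The ATPases of the base had the lowest median over probes of the structural classes, -0.65. Of their 9 tested probes 7 fell, where 13.6% of all tested probes did. Per gene the median was -0.45, and 4 of 6 genes fell, where 14.5% of all tested genes did. These subunits form the ring that unfolds substrates and opens the gate of the core. Psmc5 had the lowest gene mean of the log2 fold change. Its probe ILMN_1251877 read 12.46, 12.40 and 12.57 in scramble and 11.61, 11.75 and 11.55 in knockdown myotubes, and ILMN_1220632 read 11.72, 11.99 and 11.72 against 11.14, 11.12 and 10.68. On both probes every knockdown array was below every scramble array. The log2 fold changes were -0.84 (SE 0.10, adjusted p = 0.00368) and -0.83 (SE 0.16, adjusted p = 0.0117), which left 55.8% and 56.1% of the scramble signal. Psmc4 was measured by ILMN_2728516, which has no entry in the RefSeq gene table, with 9.03, 9.03 and 9.11 against 8.20, 8.49 and 8.29, and by ILMN_2632349, with 12.48, 12.62 and 12.53 against 11.82, 12.00 and 11.78. It fell on both, with log2 fold changes of -0.73 (SE 0.11, adjusted p = 0.00589) and -0.67 (SE 0.10, adjusted p = 0.00637).

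Psmc2, another ATPase of the ring, read 9.92, 10.15 and 10.16 in scramble and 9.41, 9.45 and 9.42 in knockdown myotubes on ILMN_2764737, without overlap. It fell on that probe (log2 fold change -0.65, SE 0.11, adjusted p = 0.00707) and on ILMN_2918018 (-0.48, adjusted p = 0.0141). Psmc1 fell by 0.33 on the log2 scale (adjusted p = 0.0334). Not every ATPase was called. Psmc3 was at -0.17 (adjusted p = 0.261) and Psmc6 at 0.22 (adjusted p = 0.396), with overlapping groups in both, and a further Psmc6 probe was not detected. Under the 75th percentile shift after background correction Psmc3 was at -0.04. The scramble arrays of Psmc6 ran from 8.25 to 8.97, so that the size of its value depends on single arrays. Because 2 of the 6 ATPase genes were not called on 1 tested probe each, and no difference between genes was tested, the fall is described here only for the genes named. Without any one array 5 or 6 of the 7 calls were made. Psmc1 lost its call with each array left out (adjusted p up to 0.103), and ILMN_2918018 of Psmc2 without DJ-1 siRNA replicate 1 or 3 (up to 0.0585). Both were also lost under the 75th percentile shift after background correction, at -0.21 (adjusted p = 0.146) and -0.33 (adjusted p = 0.0681). The median over the probes of the class lay between -0.71 and -0.55 under all settings fitted by probe.

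Of the base subunits without ATPase activity, with 6 tested probes, only Psmd1 fell, on each of its 3 probes. Of all tested probes 13.6% did. Psmd1 is a scaffold that carries a ubiquitin receptor. ILMN_2915861 read 9.61, 9.85 and 9.93 in scramble and 8.93, 8.92 and 8.94 in knockdown myotubes, and the groups did not overlap. This was the lowest log2 fold change of any proteasome probe, -0.87 (SE 0.11, adjusted p = 0.00409), and ILMN_2440046 and ILMN_2496534 gave -0.47 and -0.50 (adjusted p of 0.0178 and 0.0164). The first kept its call with each array left out. ILMN_2440046 lost it when scramble replicate 2 or knockdown replicate 1 or 3 was left out (adjusted p up to 0.0653) and under the 75th percentile shift after background correction (-0.32, adjusted p = 0.0742), and ILMN_2496534 without DJ-1 siRNA replicate 1 or 3 (up to 0.0537). Psmd2, the companion scaffold that docks shuttle factors, was at -0.11 and 0.07 on 2 dim probes whose signs differ. The scramble means of these probes were 7.44 and 6.12, against 13.13 for Psmd4. The ubiquitin receptor Psmd4 was at 0.01. The sign of the second Psmd2 probe turned when scramble replicate 2 or knockdown replicate 1 was left out, and that of Psmd4 when scramble replicate 1 or knockdown replicate 2 was, and with array weights.

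**Figure D3:**
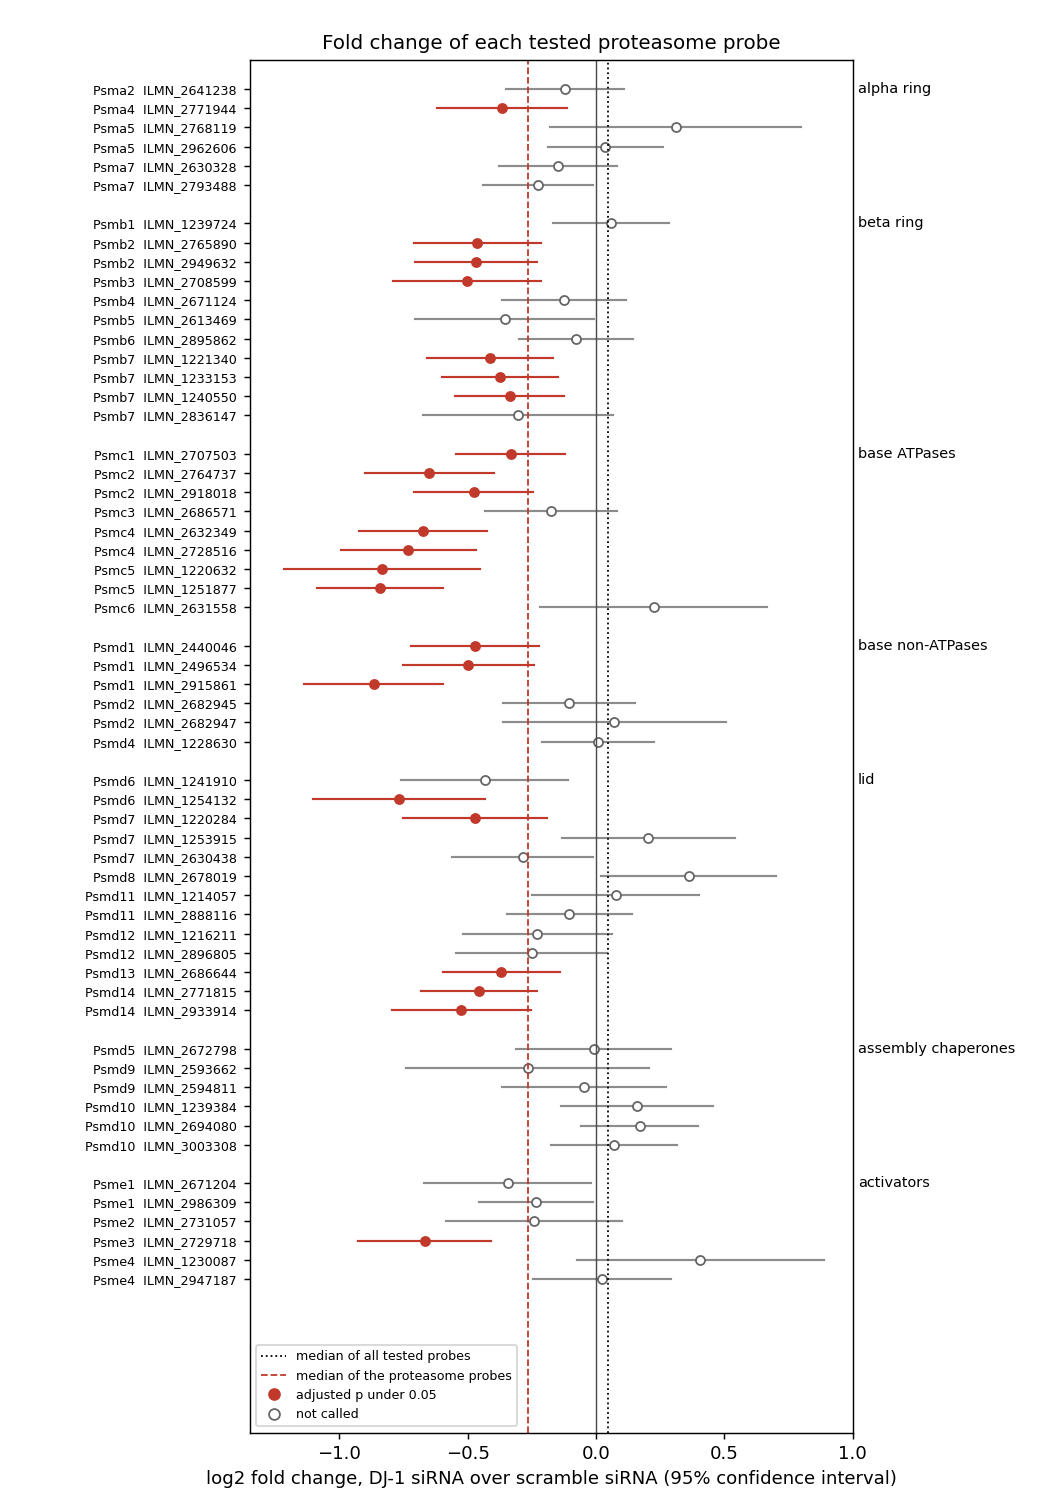
Log2 fold change of DJ-1 siRNA over scramble siRNA (x axis, with 95% confidence intervals) for each of the 57 tested proteasome probes (y axis), grouped by place in the complex, with filled red points for an adjusted p under 0.05. Called probes are found in 6 of the 7 groups and all lie below 0. The 6 assembly chaperone probes have none, where 13.6% of all tested probes fell.

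The lid takes the ubiquitin chain off the substrate. Of its 13 tested probes 5 fell, where 13.6% of all tested probes did, with a class median of -0.29. Psmd14, the deubiquitinase of the lid, fell on both of its probes. ILMN_2933914 read 11.27, 11.57 and 11.34 in scramble and 10.86, 10.82 and 10.92 in knockdown myotubes, without overlap, with log2 fold changes of -0.52 (SE 0.11, adjusted p = 0.0167) for this probe and -0.46 (SE 0.09, adjusted p = 0.0147) for ILMN_2771815. The former call was lost without knockdown replicate 1 or 2 (adjusted p up to 0.0638) and the latter without knockdown replicate 1 or 3 (up to 0.0668). The structural subunit Psmd13 fell by 0.37 on the log2 scale (adjusted p = 0.0298). With each array left out in turn, its call was kept only without scramble replicate 1 (adjusted p up to 0.11). Psmd6, another scaffold of the lid, read 8.71, 8.44 and 8.53 in scramble and 7.61, 8.02 and 7.75 in knockdown myotubes on ILMN_1254132. On this probe the arrays of the groups were well apart, and the log2 fold change was -0.77 (SE 0.14, adjusted p = 0.0101), called also with each array left out. The other Psmd6 probe was at -0.43 and missed the threshold (adjusted p = 0.0519), although it too had no overlap, and it was called under 7 of 15 alternatives. These were the leaving out of DJ-1 siRNA replicate 2 (-0.55, adjusted p = 0.0338), quantile normalization without background correction, the 75th percentile shift without it, the larger offset, the stricter detection limit, the trend in the prior variance and array weights (lowest adjusted p of 0.0124 with the trend).

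The probes of Psmd7, which pairs with Psmd14, differed from each other. ILMN_1220284 fell (log2 fold change -0.47, adjusted p = 0.026). With each array left out in turn, this call was kept only without scramble replicate 1 or 2 (adjusted p up to 0.0883). ILMN_2630438 was at -0.29 (adjusted p = 0.105, called with quantile normalization but no background correction and with the trend in the prior variance) and the dim ILMN_1253915 at 0.20 (adjusted p = 0.314), and the mean of the gene was not called (-0.19, adjusted p = 0.178). The last of these probes has no entry in the RefSeq gene table. Psmd11, which clamps the lid to the core, was at 0.08 and -0.11 on its 2 tested probes, the former at -0.01 with array weights and -0.0027 without DJ-1 siRNA replicate 3. Psmd12 was at -0.23 and -0.25 (adjusted p of 0.196 and 0.167), and its second probe was called without scramble replicate 1 (-0.36, adjusted p = 0.0468) and with the trend in the prior variance. Psmd8 was the 1 subunit gene higher at an unadjusted p under 0.05. It read 12.24, 12.53 and 12.72 in scramble and 12.84, 12.77 and 12.95 in knockdown myotubes, so that every knockdown array was above every scramble array. The log2 fold change of Psmd8 was 0.36 (SE 0.14, adjusted p = 0.101). Scramble replicate 1, at 12.24, lay furthest from the knockdown arrays, so that the size of this value rests in part on it. Psmd8 passed the threshold under 4 of 15 alternatives, without background correction (0.35, adjusted p = 0.0301), under the 75th percentile shift after background correction (0.52, adjusted p = 0.0484) and without it (0.46, adjusted p = 0.00883), and with a trend in the prior variance (0.36, adjusted p = 0.0113).

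Both probes of Psmd3, a structural lid subunit, were at background, with a detection on 1 of 6 arrays for 1 of them, and were not tested. One further probe each of Psmd8 and Psmd11 was not detected on any array. Lid calls without scramble replicates 1, 2 and 3 numbered 6, 4 and 3 of 13, where 13.5%, 9.27% and 9.79% of all tested probes fell. Without DJ-1 siRNA replicates 1, 2 and 3 they numbered 1, 3 and 2, where 6.55%, 10.7% and 7.05% did. Under the 75th percentile shift after background correction 2 lid probes fell, and the median was -0.15. The calls lost were those of Psmd13 (-0.23, adjusted p = 0.152), ILMN_2771815 of Psmd14 (-0.34, adjusted p = 0.0543) and ILMN_1220284 of Psmd7 (-0.37, adjusted p = 0.0666).

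The chaperones that assemble the base, Psmd5, Psmd9 and Psmd10, are not part of the finished complex. By limma 0 of their 6 tested probes were called, where 13.6% of all tested probes fell and 16.5% rose. At an unadjusted p under 0.05 there were 0, where 7659 of the 17890 probes tested in all were. With so few probes, the lack of a lower call is not set apart from the share of all probes. The log2 fold changes ran from -0.27 on a dim Psmd9 probe (ILMN_2593662, adjusted p = 0.348, and -0.04 without scramble replicate 2) to 0.17 on a Psmd10 probe (ILMN_2694080, adjusted p = 0.219). Psmd10, known as gankyrin, read 11.05, 11.19 and 11.18 on that probe in scramble and 11.34, 11.35 and 11.24 in knockdown myotubes, so that every knockdown array was above every scramble array by a small margin. Its other probes were at 0.16 and 0.07, and Psmd5 was at -0.01, with a positive value when scramble replicate 2 or 3 or knockdown replicate 2 or 3 was left out. The median of the chaperone probes was 0.03, and without scramble replicate 1 it was -0.02. A further Psmd5 probe was not detected. The difference between the chaperones and the subunits was not tested.

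The activators cap the core in place of the regulatory particle. Of the 6 tested activator probes 1 fell, where 13.6% of all tested probes did. This was the probe of Psme3, the nuclear activator that works without ubiquitin. It read 10.01, 10.00 and 10.08 in scramble and 9.20, 9.47 and 9.41 in knockdown myotubes, and every knockdown array was below every scramble array. The log2 fold change was -0.67 (SE 0.11, adjusted p = 0.00714), and the call was kept with each array left out. Psme1 and Psme2 form the activator that interferon induces. Psme1 read 10.39, 10.78 and 10.76 in scramble and 10.39, 10.28 and 10.22 in knockdown myotubes on ILMN_2671204, where scramble replicate 1 was level with knockdown replicate 1, and 11.64, 11.70 and 11.69 against 11.48, 11.50 and 11.36 on ILMN_2986309, where the groups did not overlap. The log2 fold changes were -0.35 (adjusted p = 0.0993) and -0.23 (adjusted p = 0.104), and the first was called without scramble replicate 1 (-0.47, adjusted p = 0.0258), and both with quantile normalization without background correction and with the trend in the prior variance. Psme2 read 9.93, 9.77 and 9.48 against 9.47, 9.36 and 9.62, which overlap, and its log2 fold change was -0.24 (adjusted p = 0.246). With scramble arrays so far apart, the size of this value depends on single arrays.

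Psme4, the activator linked to histone degradation, was at 0.02 on its bright probe (adjusted p = 0.896), a sign that turned when scramble replicate 2 or knockdown replicate 1 or 2 was left out. Its dim probe, detected on 2 scramble and on all knockdown arrays, was at 0.41 (adjusted p = 0.173). It was the only tested proteasome probe not detected on all 6 arrays. Without Psme1 and Psme2 the proteasome list had 54 tested probes, 23 of them lower, with a median of -0.28.

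Of the 18 genes with more than 1 tested probe, 15 had probes of 1 sign, and in Psmd2, Psmd7 and Psmd11 the signs differed. In 6 genes all tested probes fell (Psmb2, Psmc2, Psmc4, Psmc5, Psmd1 and Psmd14) and in 3 genes some did (Psmb7, Psmd6 and Psmd7). The widest gap between probes of a gene was 0.68 in log2 fold change, in Psmd7. Bead noise was mostly larger for scramble, with overlap between the groups. The median standard error over beads, in percent of the signal of the proteasome probes, was 5.56, 4.01 and 4.98 for scramble and 4.08, 3.62 and 3.76 for knockdown, and its part in the result was not tested. Within a group, the median SD of the tested proteasome probes was 0.10 on the log2 scale, and that of all tested probes was 0.18.

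The immunoproteasome subunits Psmb8, Psmb9 and Psmb10 replace the catalytic Psmb5, Psmb6 and Psmb7 in cells exposed to interferon. Of their 5 tested probes 3 fell, where 13.6% of all tested probes did, and the median was -0.66. Psmb10 read 9.45, 9.75 and 9.67 in scramble and 8.14, 8.19 and 8.25 in knockdown myotubes on ILMN_2757870, which leaves a wide gap between the groups. Its log2 fold changes were -1.43 (SE 0.11, adjusted p = 0.00234) and -1.36 (SE 0.19, adjusted p = 0.0046) on its 2 probes. Psmb8 fell on its bright probe (-0.66, SE 0.12, adjusted p = 0.00912) and was at -0.52 on the dim one (adjusted p = 0.118). Psmb9, detected on every scramble array and on 1 knockdown array, was tested through its scramble signal. It was at -0.64 (adjusted p = 0.133), a size taken against values near background and not exact. All 3 calls were kept with each array left out.

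Related genes were read as lists. Their counts are to be read beside the 13.6% of all tested probes that fell and the 16.5% that rose. Of the assembly chaperones outside the Psmd names, most of which act on the core, with 6 tested probes and a median of -0.15, Pomp fell by 0.34 on the log2 scale (adjusted p = 0.0372), a call lost with each array left out (adjusted p up to 0.124) and under the 75th percentile shift after background correction (0.19), and Psmg1, Psmg2 and Psmg3 were not called. Psmg4 was not tested, and Paaf1 is not listed on the array. Among receptors, deubiquitinases and other partners, with 10 tested probes and a median of 0.13, Adrm1, the ubiquitin receptor that sits on the base, fell by 0.44 on the log2 scale (adjusted p = 0.0264). With single arrays left out the call was kept only without scramble replicate 1 (adjusted p up to 0.093), and it was lost under the 75th percentile shift after background correction (0.0594). The deubiquitinase Uchl5, which binds Adrm1, rose on 1 of 4 probes (0.33, adjusted p = 0.0434), lost with each array left out (up to 0.147). A dim probe of the inhibitor Psmf1, detected on every scramble array and on 1 knockdown array, was tested through its scramble signal. It was called lower (adjusted p = 0.0343), while another was at 0.11. The log2 fold change of the former, -0.82, is taken against values near background and is not exact. It was -0.25 and not called under the 75th percentile shift without background correction, and with single arrays left out the call was kept only without scramble replicate 1 (up to 0.101). Sem1, Usp14 and Ecpas were not called.

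Of the genes that control transcription of the subunits, 4 probes were tested. Nfe2l1, the factor that induces subunit genes when proteolysis is inhibited, read 13.27, 12.99 and 13.06 in scramble and 13.30, 13.31 and 13.36 in knockdown myotubes. Every knockdown array was above every scramble array by a small margin, and the log2 fold change of 0.21 was not called (adjusted p = 0.18). It was called under the 75th percentile shift after background correction (0.36, adjusted p = 0.0494) and without it (0.30, adjusted p = 0.0228) and with a trend in the prior variance (adjusted p = 0.0349). Nfe2l2, the main factor of the antioxidant response, read 8.42, 8.70 and 8.41 against 9.27, 9.08 and 9.37. It rose on this probe (log2 fold change 0.73, SE 0.13, adjusted p = 0.00918), also with each array left out. Vcp, the segregase that hands over substrates, was at -0.25 (adjusted p = 0.11, called lower with quantile normalization without background correction and with the trend in the prior variance) and the protease Ddi2 at 0.35 (adjusted p = 0.274), while Nfe2l3 and Ngly1 were not detected.

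Among ubiquitin genes, E1 enzymes and shuttle factors, 2 of 14 tested probes rose and 1 fell, where 16.5% and 13.6% of all tested probes did. The median of the list was 0.12. It turned to -0.01 without scramble replicate 1 and to -0.03 with a detection p under 0.01 required on all arrays. Rps27a, which encodes ubiquitin fused to a ribosomal protein, fell by 0.74 on the log2 scale (adjusted p = 0.00439), a call kept with each array left out, and the ubiquitin gene Ubb was at -0.10. The shuttle factor Rad23b rose on 2 of 4 probes (0.68 and 0.33, adjusted p of 0.0202 and 0.0449). The second was lost with each array left out (adjusted p up to 0.127), the first when scramble replicate 2 or 3 or knockdown replicate 1 or 3 was left out (up to 0.0739). The E1 enzymes Uba1 and Uba6 and the ubiquilins had no call.

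**Figure D4:**
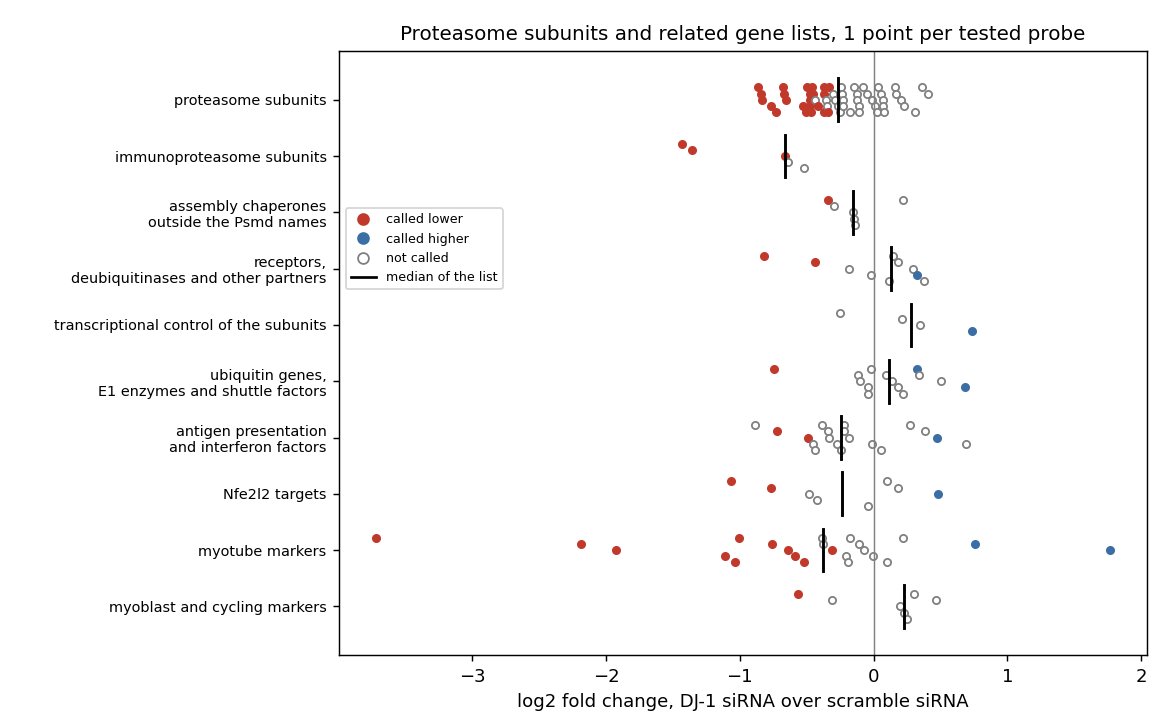
Log2 fold change of DJ-1 siRNA over scramble siRNA (x axis) for each tested probe of the proteasome subunits and of 9 related lists (y axis), with called probes filled in red (lower) or blue (higher) and a bar at each median. The immunoproteasome has the lowest median, -0.66, and the myotube markers spread most widely, from -3.72, on a Myh4 probe near background in knockdown myotubes, to 1.77.

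Genes of antigen presentation and the factors of the interferon response had 19 tested probes, of which 2 fell and 1 rose, where 13.6% and 16.5% of all tested probes did. The median of the list was -0.24. With quantile normalization without background correction 5 of the 19 fell, with array weights 4 and with the trend in the prior variance 6. Of all tested probes 16.4%, 15.7% and 16.9% fell under these settings. Irf9, a factor that acts downstream of interferon receptors, fell on 1 of 2 probes (-0.72, adjusted p = 0.0115), a call kept with each array left out. A probe of H2-K1 fell (-0.49, adjusted p = 0.0262) and a probe of H2-D1 rose (0.48, adjusted p = 0.0288). Both are uncertain, because class I genes are close paralogs and the other H2-D1 probes were at -0.45 and -0.24. The H2-K1 call was lost when scramble replicate 1 or 2 or knockdown replicate 1 or 3 was left out (adjusted p up to 0.0775) and under the 75th percentile shift after background correction (0.0584). With each array left out in turn, that of H2-D1 was kept only without scramble replicate 2 (adjusted p up to 0.0869). Of 8 tested probes of Nfe2l2 targets, Hmox1 rose (0.48, adjusted p = 0.0244) and Gclc (-0.77, adjusted p = 0.0076) and 1 of 3 probes of Srxn1 (-1.07, adjusted p = 0.0125, detected on 2 of the knockdown arrays) fell, with a median of -0.23. The Hmox1 call was lost without any one of the DJ-1 siRNA replicates (up to 0.0819).

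The labelled cell type was checked with its markers. All 12 myotube marker genes were measured, with 23 tested probes. Signals of Acta1 and Mylpf were near the top of the range, with Acta1 at 15.30 in scramble and 15.29 in knockdown myotubes. The mean log2 level over the 28 myotube marker probes was 10.61, 10.41 and 10.51 in scramble and 10.09, 10.17 and 9.93 in knockdown myotubes. Of the tested probes 11 fell and 2 rose, with a median of -0.38, which was -0.17 under the 75th percentile shift after background correction and -0.23 under that without it. Myh4, a fast myosin, was detected on every scramble array and on 1 knockdown array and was called lower (adjusted p = 0.00224). It was tested through its scramble signal, and the log2 fold change of -3.72, taken against values near background, is not exact. Myh1 fell on both probes (-2.19 and -1.93) and Myh8 on 3 probes (-1.11, -1.03 and -1.01, with adjusted p of 0.00284, 0.00304, 0.0142, 0.0129 and 0.0255 for these 5). Ttn fell on 3 probes (-0.76, -0.64 and -0.59) and rose on 2 others (1.77 and 0.76). The latter was tested through its knockdown signal, against a scramble group with a detection on 1 array, so that its size is not exact. Tnnt3 fell by 0.52 and Tnni2 fell by 0.31 on the log2 scale. Myh3, Acta1, Ckm, Mylpf, Atp2a1 and Myog were not called. Lower calls numbered 6 without DJ-1 siRNA replicate 1 or 3, against 8 to 10 without any one of the others, and Tnni2 lost its call with each array left out (adjusted p up to 0.144) and was at -0.03 (adjusted p = 0.86) under the 75th percentile shift after background correction. The Tnnt3 call was lost without knockdown replicate 1 or 3 (up to 0.0542), and 1 Myh8 probe and all Ttn probes but the highest also lost theirs without at least 1 array (up to 0.0999).

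Myoblast and cycling markers had 7 tested probes, of which 0 rose in limma and 1 of Ccnb1 fell (-0.57, adjusted p = 0.0161, lost without DJ-1 siRNA replicate 1 or 3, up to 0.0585), with a median of 0.23. Without overlap between the groups, Cdk1 was at 0.30, a Mki67 probe at 0.47 and the 2 Top2a probes at 0.25 and 0.23. None of these was called, while under 5 alternatives 1 or 2 probes of the list were called higher, 2 of them with a detection p under 0.01 required on all arrays. The mean log2 level over all 13 probes of the list was 7.03, 7.14 and 6.95 in scramble and 7.02, 7.11 and 7.02 in knockdown myotubes. It includes the probes too dim to be tested, which draw it toward background. Pax7, the marker of satellite cells, was not detected on any array. Of 9 probes of macrophage markers only that of Cd68 was tested, and it was not called (0.52, adjusted p = 0.169), although without scramble replicate 2 it was called higher. It was detected on 1 scramble array and on all knockdown arrays, so that its log2 fold change is taken against background and is not exact. Ptprc and Csf1r were not detected. The 4 endothelial and 2 adipocyte probes did not reach the detection limit for testing. Most calls among the myotube markers were thus in the same direction as those of the proteasome genes, and their part in the result was not tested.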

How the data were processed

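Arrays of 3 scramble and 3 DJ-1 siRNA samples were compared. The authors quantified them in GenomeStudio and deposited the mean intensity of each probe, without normalization or background subtraction, and a detection p-value. In R 4.3.3, limma 3.58.1 corrected the background from the detection p-values (neqc, offset 16) and quantile normalized the arrays. Probes whose detection p was below 0.05 for 3 or more arrays were tested by lmFit and eBayes, with Benjamini-Hochberg adjustment over all of them and a threshold of 0.05. Genes were tested on the mean of their tested probes. The steps were tested on simulated data, where false calls gathered among the dimmest probes, so that calls on dim probes are less certain.

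Probes kept the symbol of the file, and 67 of the 70 proteasome probes had an entry in the RefSeq genes of GRCm38.p6. Named with values are Park7, every called proteasome probe, the largest rise and fall of each structural class, genes whose probes differ in sign or call, untested genes, called probes of the lists, and others picked after their values were seen. The members and lists were chosen with earlier results of these data known. Alternatives were other background corrections, scalings, offsets and filters, a trend in the prior variance, array weights, a replicate block, each array left out, and the list without Psme1 and Psme2. Some genes of the lists are not reported here and do not enter the counts of the lists. Further experiments described with the series were left out.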

Additional observations from a re-analysis of the deposited data

How the results depend on the processing

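Park7 was called lower under each of the 15 alternatives. The median log2 fold change of the proteasome probes stayed below 0 and below that of all tested probes. It was -0.19 under the 75th percentile shift after background correction, -0.20 with that shift without background correction, -0.21 over gene means, and -0.32 to -0.25 with each array left out. The number of probes called lower was 10 under the 75th percentile shift after background correction (11.9% of all tested probes were) and 15 of 70 with no filter on dim probes (3.56%), where 45281 probes were tested. It was 13 over gene means, where 34 genes were tested, and 8 to 23 with each array left out (6.55% to 13.5%), where fewer arrays were compared. Genes called lower numbered 8 of 34 with that shift, 8 of 40 with no filter and 6 to 13 of 34 when single arrays were left out. The shares of all tested probes called lower under these settings are those just given. The share of all tested genes, 14.5% with the processing as reported, was not taken under them. Called higher was 1 probe (Psmd8) in place of 0 without background correction, with either 75th percentile shift and with the trend in the prior variance. Except where the construction is named, the cause was not tested. Of 851 values of single proteasome probes under alternatives, 84 lost a call, 26 gained one, 0 called values changed sign, and 20 uncalled values did.

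The replicate numbers did not pair the samples. Deviations of same-numbered samples correlated across probes at 0.054, 0.047 and 0.020, each higher than with the other numbers, which is a hint from the data and not from the design. With the replicate block 16 probes (11.1% of all tested probes) and 11 genes were called lower, 0 probes (13.2%) were called higher, the median was -0.27 and Park7 was at -1.16.

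Signal over background limits what could be read. Of the 70 proteasome probes 11 were not detected on any array and 2 on 1 array, so that Psma1, Psma3, Psma6, Psma8, Psmb11 and Psmd3 have no test. A dim probe has its fold change set in part by the background correction. A probe reads only the transcripts that carry its sequence, and quantile normalization assumes like distributions on all arrays. With 3 arrays per group, a value that was not called is not shown to be equal, and RNA levels say nothing of the protein or of its activity.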
